A study of Mus musculus with 12 samples.

Results

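The 4 susceptible and 4 resilient libraries of a study of social defeat stress were compared gene by gene, 8 of the 12 libraries of the series. All were RNA-seq libraries of punched lateral habenula from C57BL/6 mice aged 9 weeks. Social defeat exposes a mouse repeatedly to a larger aggressor, and defeated mice that afterwards avoid a social target are called susceptible while those that still approach one are called resilient. Both groups were defeated, so the comparison asks what separates defeated mice that avoid others from defeated mice that do not. The remaining 4 libraries, from mice that were not defeated, entered the estimate of spread between libraries and are given as a further value beside the results. Whether every library came from its own mouse is not spelled out in the labels, so p-values measure the spread between these samples.

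The lateral habenula, a nucleus of the epithalamus, holds mainly glutamatergic neurons. It is driven by aversive events and by missing rewards, and it inhibits midbrain dopamine and serotonin neurons through a GABAergic relay. Its cells depend on oxidative phosphorylation, whose complexes are built from proteins of both genomes: the nuclear genome encodes most subunits, and the mitochondrial genome encodes the remainder together with the ribosomal RNAs on which they are made. Mitochondrial genes are transcribed as long precursors from both strands of the circular genome and are then cut into single transcripts.

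Total reads over the 17416 genes of the table were 39.3 ± 3.36 M in susceptible, 40.7 ± 5.27 M in resilient and 43.4 ± 4.14 M in non-defeated libraries (M, 1000000 reads; SD, n = 4 each). The interaction ratio deposited for each mouse was 0.69, 0.63, 0.13 and 0.55 in susceptible mice, 1.18, 1.08, 1.20 and 2.24 in resilient mice and 1.26, 1.84, 1.12 and 1.57 in non-defeated mice. It scores the behaviour that names the groups and is not a finding. The 13 lateral habenula markers were all detected, at a summed level of 2397 to 2806 CPM (reads per 1000000 reads, after trimmed-mean scaling) in susceptible and 2066 to 2976 CPM in resilient libraries. Among them Gpr151, an orphan receptor of habenular neurons, ran from 372 to 404 CPM in susceptible and from 342 to 809 CPM in resilient libraries. Markers of the adjoining medial habenula were present as well, at 1101 to 1391 CPM in susceptible and 838 to 1392 CPM in resilient libraries. In bulk tissue, fewer cells of a type and less RNA per cell cannot be told apart.

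Some libraries stood apart. Resilient replicate 4 lay farthest from the other defeated libraries on the first principal component, which held 29.3% of the variance, and had the highest sum of endothelial and mural markers, 728 CPM against 116 CPM in the lowest resilient library. Susceptible replicate 1 had the highest sum of blood cell markers, 5687 CPM, against 869.5 CPM in the lowest susceptible library. The sample titles also carry a letter, H or N, whose meaning they do not give: susceptible replicates 1 and 2 have H, susceptible replicates 3 and 4 and all resilient libraries have N, and all non-defeated libraries have H. In the resilient and non-defeated libraries, group and letter therefore cannot be told apart wherever these are set side by side. The mitochondrial results are given also for the 6 defeated libraries with N. Printed medians of gene lists are given also for those 6 libraries, or without resilient replicate 4, where the sign turned or the median moved by over 0.15 on the log2 scale.

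Mitochondrially encoded genes gave the clearest difference. They made up 8.37%, 8.01%, 10.2% and 12.6% of all gene reads in the susceptible libraries. In the resilient libraries the share was 4.04%, 4.55%, 5.13% and 4.46%, and in the non-defeated libraries 9.35%, 10.2%, 6.73% and 10.6%. Every susceptible library thus stood above every resilient one, and the resilient libraries also lay below all of the non-defeated ones. The mean share was 9.79% ± 2.11 in susceptible and 4.55% ± 0.449 in resilient libraries (SD, n = 4 each), a difference of 5.24 percentage points (exact permutation test, two-sided, p = 0.0286, the smallest that 4 against 4 libraries allow). These genes were chosen with earlier results of these data known, so the p-value describes the difference and is no separate support for it. Among libraries with the letter N alone the means were 11.4% for the 2 susceptible and 4.55% for the 4 resilient libraries (difference 6.85, exact permutation test, p = 0.133, the smallest possible there). Both kinds of mitochondrial RNA took part: the 13 protein-coding genes held 8.38% ± 1.90 of reads in susceptible and 3.89% ± 0.414 in resilient libraries, and the 2 ribosomal RNAs 1.41% ± 0.215 in susceptible and 0.659% ± 0.0456 in resilient libraries (SD, n = 4 each).

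**Figure D1:**
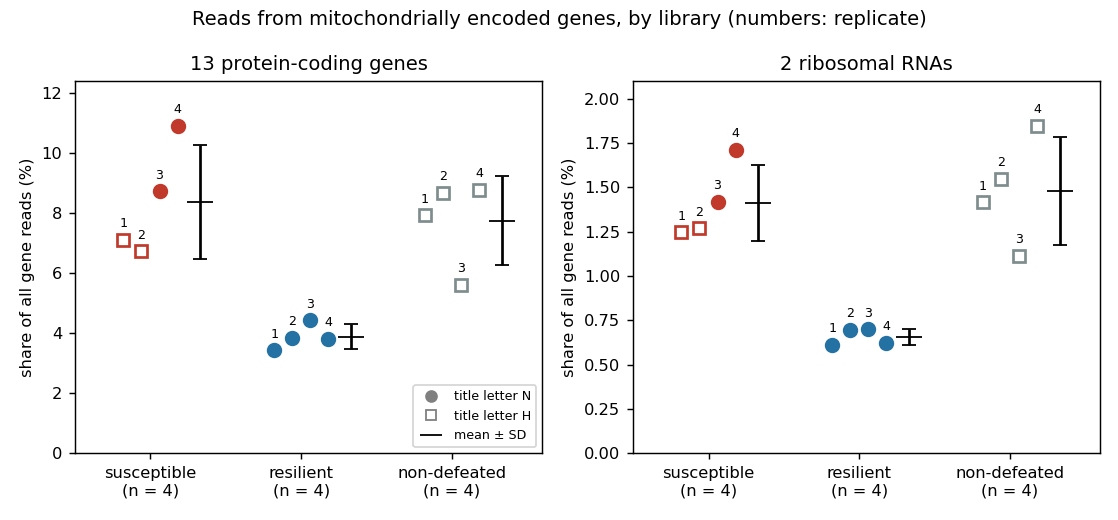
Share of all gene reads, in percent, that came from the 13 protein-coding mitochondrial genes (left) and from the 2 mitochondrial ribosomal RNAs (right), one point per library, with circles for title letter N, squares for H and black bars for the mean ± SD. The 4 resilient libraries lie between 3.43% and 4.44% on the left and below every library of the other groups in both panels.

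Across all genes, 9 of 17111 rose in susceptible mice, 0.0526% of those tested, and 0 fell (limma-trend, Benjamini-Hochberg adjusted p under 0.05). Of the 9, 8 were mitochondrially encoded and the other was Capn3, a calpain protease gene. Before adjustment, 275 genes were higher (1.61%) and 329 lower (1.92%) in susceptible mice at p under 0.05. The edgeR quasi-likelihood test called 0 genes, and DESeq2 called 38, of which 23 were higher and 15 lower and 15 were mitochondrially encoded. Values did not overlap between the groups for 241 genes higher in susceptible libraries (1.41%) and 190 genes lower (1.11%). The limma calls lay close to the threshold, with adjusted p from 0.0421 to 0.0486, and all of them ended when any 1 of the 8 defeated libraries was left out, with 0 genes called each time.

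The share of mitochondrial reads enters every library total, so the comparison was repeated with these genes left out of the totals. With the mitochondrial genes also left out of the scaling factors, 9 genes were called, the same ones. On plain CPM over all genes 7 genes were called, and on plain CPM over the remaining genes 8, all among the 9. The median log2 fold change of all genes tested was -0.01 with all genes in the totals, -0.05 on plain CPM and 0.01 on plain CPM without mitochondrial genes. On plain CPM over all genes the split at an unadjusted p under 0.05 was 210 genes higher and 428 lower, and without mitochondrial genes in the totals it was 319 higher and 282 lower.

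**Figure D2:**
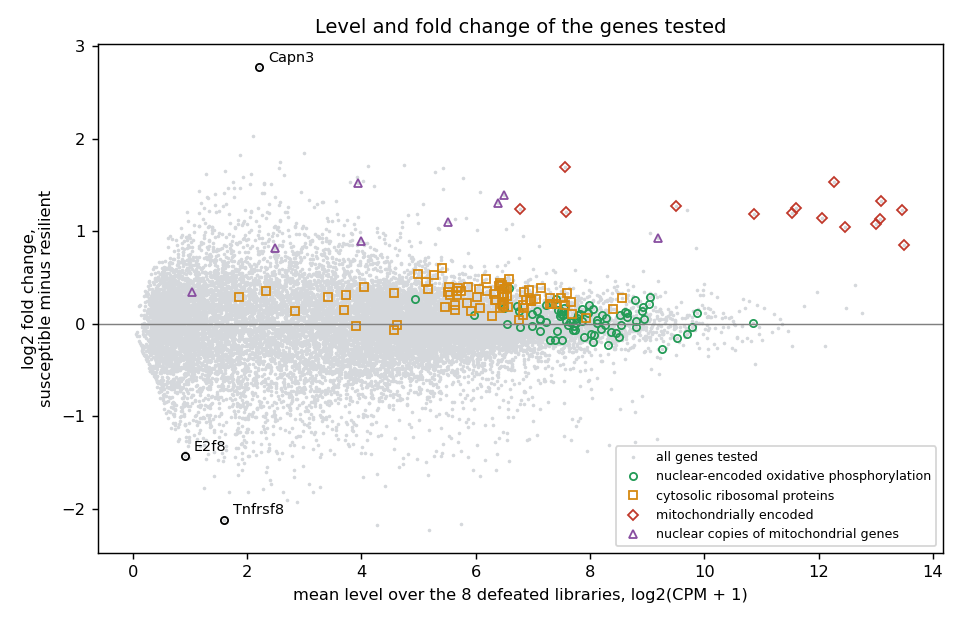
Log2 fold change of susceptible minus resilient libraries against the mean level over the 8 defeated libraries, both on the log2(CPM + 1) scale, one point per gene tested. The 15 mitochondrially encoded genes (diamonds) lie between 0.85 and 1.70, apart from other genes of high level, and 76 of 79 cytosolic ribosomal protein genes (squares) lie above 0.

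The mitochondrial ribosomal RNAs, which form the core of the mitochondrial ribosome, had the smallest p of all genes. The small subunit RNA mt-Rnr1 (ENSMUSG00000064337, chromosome M, 70 to 1024, + strand, GRCm38) stood at 2244, 2555, 2659 and 2957 CPM in susceptible, at 933, 1218, 1355 and 1093 CPM in resilient and at 2562, 2911, 2149.7 and 3327 CPM in non-defeated libraries. The groups of defeated mice did not overlap, and the susceptible libraries lay in the range of the non-defeated ones. The log2 fold change was 1.19 ± 0.16 (SE; limma-trend, adjusted p = 0.0421). The large subunit RNA mt-Rnr2 (chromosome M, 1094 to 2675, + strand) stood at 10155, 10204, 12144 and 14756 CPM in susceptible and at 5346, 5649, 5725 and 4694 CPM in resilient libraries. Here too the groups were separate, with a log2 fold change of 1.13 ± 0.16 (SE; limma-trend, adjusted p = 0.0469).

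Among the complex I subunits, which pass electrons from NADH to ubiquinone, mt-Nd2, mt-Nd4, mt-Nd5 and mt-Nd6 rose. mt-Nd6, the protein-coding gene that lies alone on the light strand (chromosome M, 13552 to 14070, - strand), stood at 823, 845, 1150.1 and 1287 CPM in susceptible and at 384, 439, 500.2 and 355 CPM in resilient libraries. Both strands of the mitochondrial genome were thus represented among the genes that rose, though the use of strand in counting is not given in the sources used here and mt-Nd6 shares 14 exon bases with mt-Nd5 on the other strand. The log2 fold change was 1.27 ± 0.19 for mt-Nd6, 1.25 ± 0.20 for mt-Nd5, 1.19 ± 0.19 for mt-Nd2 and 1.14 ± 0.18 for mt-Nd4 (SE; limma-trend, adjusted p = 0.0469 for each). mt-Nd4 stood at 4728, 4901, 6544 and 7399.9 CPM in susceptible and at 2559.8, 2571, 3116 and 2304 CPM in resilient libraries. mt-Nd5 stood at 3671, 3519, 4523 and 6015 CPM in susceptible and at 1814, 1841, 2034 and 1627 CPM in resilient libraries. Neither gene overlapped between the groups, and in both susceptible replicate 4 was highest. mt-Nd2 ran from 3250.2 to 5064 CPM in susceptible and from 1282 to 2245 CPM in resilient libraries. The other complex I genes did not pass: mt-Nd1 had a log2 fold change of 1.05 ± 0.19, mt-Nd4l one of 1.24 ± 0.26 and mt-Nd3 one of 1.70 ± 0.38 (SE; limma-trend, adjusted p = 0.0951, 0.321 and 0.427). mt-Nd3 stood at 229, 195, 249.96 and 456 CPM in susceptible and at 37.8, 81.0, 86.7 and 166 CPM in resilient libraries. It had the largest fold change of the 15 and also the largest standard error, and resilient replicate 1 was its lowest library.

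Of the ATP synthase genes both rose. mt-Atp6 stood at 13322, 12810.0, 17349 and 19779 CPM in susceptible and at 6302, 7367, 8511 and 4950.4 CPM in resilient libraries, with a log2 fold change of 1.23 ± 0.19 (SE; limma-trend, adjusted p = 0.0469). mt-Atp8, which overlaps mt-Atp6 by 43 bases, stood at 225, 235, 276 and 325 CPM in susceptible and at 98.9, 124, 139.8 and 94.7 CPM in resilient libraries, with a log2 fold change of 1.21 ± 0.20 (SE; limma-trend, adjusted p = 0.0486). In both genes resilient replicate 4 was the lowest library and susceptible replicate 4 the highest. The cytochrome genes had positive fold changes that did not pass. mt-Cytb, the mitochondrially encoded subunit of complex III, had a log2 fold change of 1.08 ± 0.20, and the complex IV genes mt-Co1, mt-Co2 and mt-Co3 had 0.85 ± 0.18, 1.53 ± 0.29 and 1.32 ± 0.24 (SE; limma-trend, adjusted p = 0.103, 0.267, 0.126 and 0.0951). mt-Co1 stood at 12219.6, 12093, 16559 and 19081 CPM in susceptible and at 8321, 7293, 8809 and 8263 CPM in resilient libraries. These groups did not overlap either.

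All 15 mitochondrial genes in the table, 13 for proteins and 2 for ribosomal RNAs, had positive fold changes and separate groups, where 1.41% of all genes tested were separate in that direction. The median log2 fold change of the 15 was 1.21, beside -0.01 over all genes tested. With mitochondrial genes left out of totals and scaling factors the fold changes ran from 0.85 to 1.70, and on plain CPM without mitochondrial genes from 0.89 to 1.73. Between libraries with the letter N alone they ran from 1.12 to 2.03, with 0 genes called (limma-trend, smallest adjusted p = 0.190). With the letter as a term of the model the fold changes were the same as between libraries with N alone, and only the spread came from all 12 libraries. In that fit 11 genes were called, among them 9 mitochondrial genes, and Capn3 was not (log2 fold change 2.51, limma-trend adjusted p = 0.367).

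**Figure D3:**
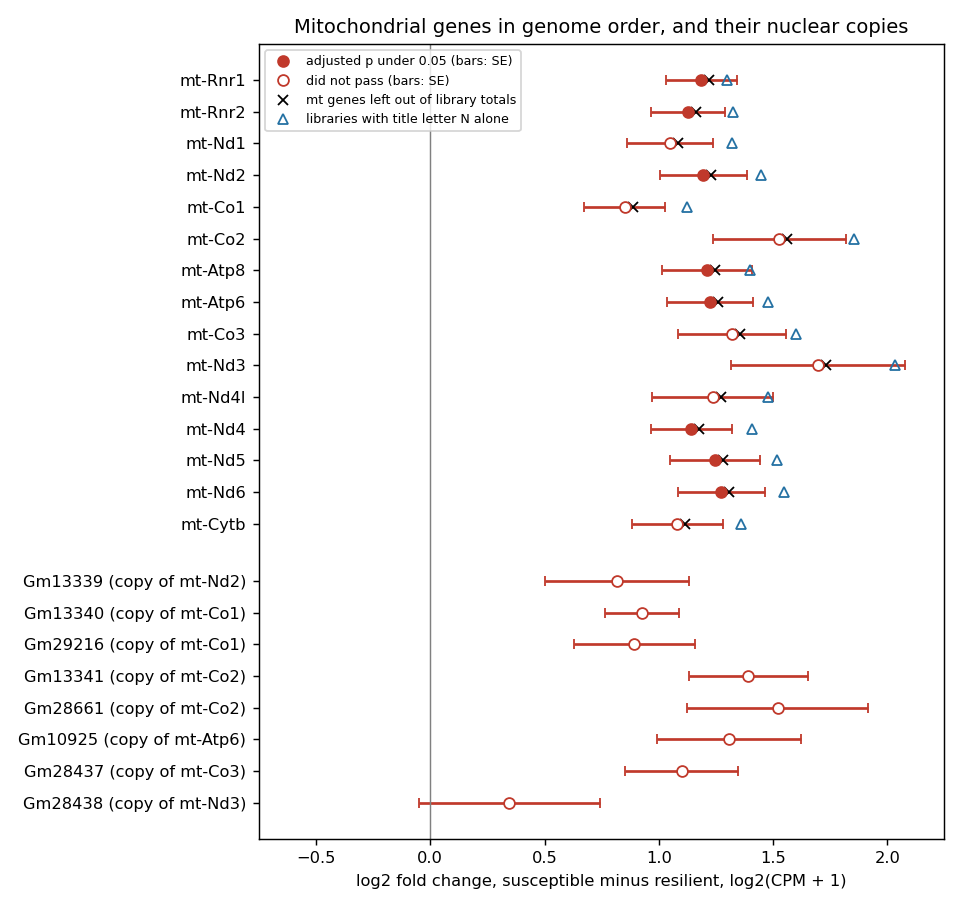
Log2 fold change of susceptible minus resilient libraries for the 15 mitochondrial genes, from the top in genome order, and below them for their 8 nuclear copies, with SE bars and filled points for an adjusted p under 0.05. Crosses leave mitochondrial genes out of library totals on plain CPM and triangles use libraries with the title letter N alone. All points lie above 0, with mt-Co1 lowest at 0.85 and mt-Nd3 highest at 1.70 among the mitochondrial genes.

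The make-up of the mitochondrial RNA itself was similar in the groups with a few differences. Per kilobase of transcript, mt-Atp6 was the most abundant, at 23223 ± 4893 CPM per kilobase in susceptible and 9960 ± 2229 CPM per kilobase in resilient libraries. mt-Nd4l was the least abundant, at 518 ± 157 and 214 ± 38.9 CPM per kilobase in the same groups (CPM after trimmed-mean scaling, SD, n = 4 each). As a share of all mitochondrial reads, mt-Co1 held 15.0% ± 0.461 in susceptible and 18.3% ± 2.02 in resilient libraries, lower in every susceptible library than in any resilient one. mt-Nd6 held 1.03% ± 0.0485 in susceptible and 0.932% ± 0.0523 in resilient libraries, also without overlap. For the other 13 genes the shares overlapped between the groups. mt-Co2, for example, held 7.20% ± 1.10 of mitochondrial reads in susceptible and 5.71% ± 1.98 in resilient libraries (SD, n = 4 each). These shares were not tested.

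Copies of mitochondrial genes lie in the nuclear genome, and reads from mitochondria can be assigned to them. A search of the annotated transcripts found 8 nuclear pseudogenes in the table with at least 95% identity to a mitochondrial gene over at least 100 bases. Their sequences show how little separates them. The 120 bases shown are the stretch without gaps in which the mitochondrial complex IV gene mt-Co2 and its copy on chromosome 2 differ most. Over them the copy on chromosome 1 had 0 mismatches and the copy on chromosome 2 had 7, which are in capitals in the lines of mt-Co2 and Gm13341 (GRCm38, from the GENCODE M21 transcripts, 5′ to 3′). Over its whole alignment of 684 bases Gm13341 had 95.9% identity. mt-Co2 lies at chrM:7457-7576 on the + strand, Gm13341 at chr2:22587411-22587530 on the - strand and Gm28661 at chr1:24615002-24615121 on the - strand.
mt-Co2: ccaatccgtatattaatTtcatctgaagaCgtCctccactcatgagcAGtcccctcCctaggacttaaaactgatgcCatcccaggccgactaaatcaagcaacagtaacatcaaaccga
Gm13341: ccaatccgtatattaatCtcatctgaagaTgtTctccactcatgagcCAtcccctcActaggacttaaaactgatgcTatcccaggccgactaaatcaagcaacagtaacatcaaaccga
Gm28661: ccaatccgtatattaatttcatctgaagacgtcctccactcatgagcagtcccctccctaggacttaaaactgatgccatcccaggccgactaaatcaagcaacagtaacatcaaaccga

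The 8 copies had fold changes of the same sign as the mitochondrial genes, and their separate levels are uncertain because such reads cannot be told apart where the letters are identical. Fold changes of all 8 were positive (median 1.01, and 1.35 with the letter N alone), and 7 had separate groups, while 0 passed. Of all genes tested, 48% were positive and 1.41% had separate groups with higher susceptible values. Gm13340, a copy of mt-Co1 with 97.6% identity over 1545 bases, stood at 591, 713, 844 and 907 CPM in susceptible and at 378, 375, 447 and 390.2 CPM in resilient libraries (log2 fold change 0.92 ± 0.16, SE; limma-trend, adjusted p = 0.0821). Gm13341 had a log2 fold change of 1.39 ± 0.26 and Gm28661 one of 1.52 ± 0.40, beside 1.53 ± 0.29 for mt-Co2 (SE). The 2 copies of mt-Co1, Gm13340 and Gm29216, had 0.92 ± 0.16 and 0.89 ± 0.27 (SE), beside 0.85 ± 0.18 for that gene. Gm10925, identical to mt-Atp6 over 678 bases, and Gm28437, identical to mt-Co3 over 783 bases, had 1.31 ± 0.31 and 1.10 ± 0.25, and Gm13339, a copy of mt-Nd2, had 0.82 ± 0.32 (SE). Gm28438, a copy of mt-Nd3, overlapped between the groups at 0.35 ± 0.40 (SE), with a mean level of 1.43 CPM in susceptible and 0.673 CPM in resilient libraries.

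Nuclear genes of the same machinery gave no called difference. Of 76 nuclear-encoded subunits of oxidative phosphorylation, all tested, 48 had positive and 28 negative fold changes, where 48% of all genes tested were positive and 52% negative. Their median was 0.05 (-0.04 without resilient replicate 4), 0 passed, and 0 reached an unadjusted p under 0.05 or had separate groups. The member with the smallest p, the complex III core gene Uqcrc1, stood at 489, 658, 562 and 512 CPM in susceptible and at 806, 687, 688 and 521 CPM in resilient libraries (log2 fold change -0.27 ± 0.15, SE). Its groups overlapped. The summed level of the 76 genes was 20848 to 25042 CPM in susceptible and 19048 to 25303 CPM in resilient libraries. Of 75 mitochondrial ribosomal protein genes tested, which build the protein part of that ribosome, 35 were positive (median -0.02) and 0 passed.

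Genes that replicate, transcribe and process mitochondrial DNA and RNA showed no common direction. Of 30 tested, 15 were positive and 15 negative, with a median of 0.00 (-0.11 with the letter N alone), and 0 passed. Fastkd5, an RNA-binding protein gene needed for the maturation of some mitochondrial transcripts, stood at 1.15, 2.09, 0.345 and 1.77 CPM in susceptible and at 3.24, 6.71, 4.54 and 3.75 CPM in resilient libraries. Its groups were separate, with a log2 fold change of -1.28 ± 0.51 (SE; limma-trend, unadjusted p = 0.0246), which did not pass, and 1966 of its exon bases are shared with Ubox5 on the same strand. Mfn2, which encodes an outer membrane protein for mitochondrial fusion and belonged to none of these lists, stood at 285, 272, 223 and 234 CPM in susceptible and at 323, 351, 344 and 323 CPM in resilient libraries (log2 fold change -0.41 ± 0.12, SE; limma-trend, adjusted p = 1).

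Nearly all cytosolic ribosomal protein genes had positive fold changes, though no single member passed. Of 79 tested, 76 were positive, with a median log2 fold change of 0.28, where 48% of all genes tested were positive. Separate groups, all in the direction of higher susceptible values, were found for 16 of them, beside 1.41% of all genes tested. By limma-trend 5 were higher at an unadjusted p under 0.05, beside 1.61% of all genes tested. Rps2, a small subunit protein gene, stood at 108, 97.5, 105 and 132 CPM in susceptible, at 73.0, 76.8, 73.4 and 92.5 CPM in resilient and at 119, 143, 127 and 162 CPM in non-defeated libraries (log2 fold change 0.48 ± 0.16, SE). Rps19 stood at 140.3, 157, 155 and 182 CPM in susceptible and at 129, 130.3, 125 and 99.8 CPM in resilient libraries (0.39 ± 0.16, SE). Rpl36, a large subunit protein gene, overlapped between the groups (0.48 ± 0.20, SE). The summed level of the 79 genes ran from 6961 to 9182 CPM in susceptible, from 6375 to 6689 CPM in resilient and from 7051 to 11315 CPM in non-defeated libraries, so the defeated groups did not overlap. The median of the list was 0.24 on plain CPM, 0.32 on plain CPM without mitochondrial genes, 0.31 with the letter N alone and 0.28 without resilient replicate 4. Ribosomal protein genes have many processed pseudogenes, so their reads are partly shared with other loci.

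**Figure D4:**
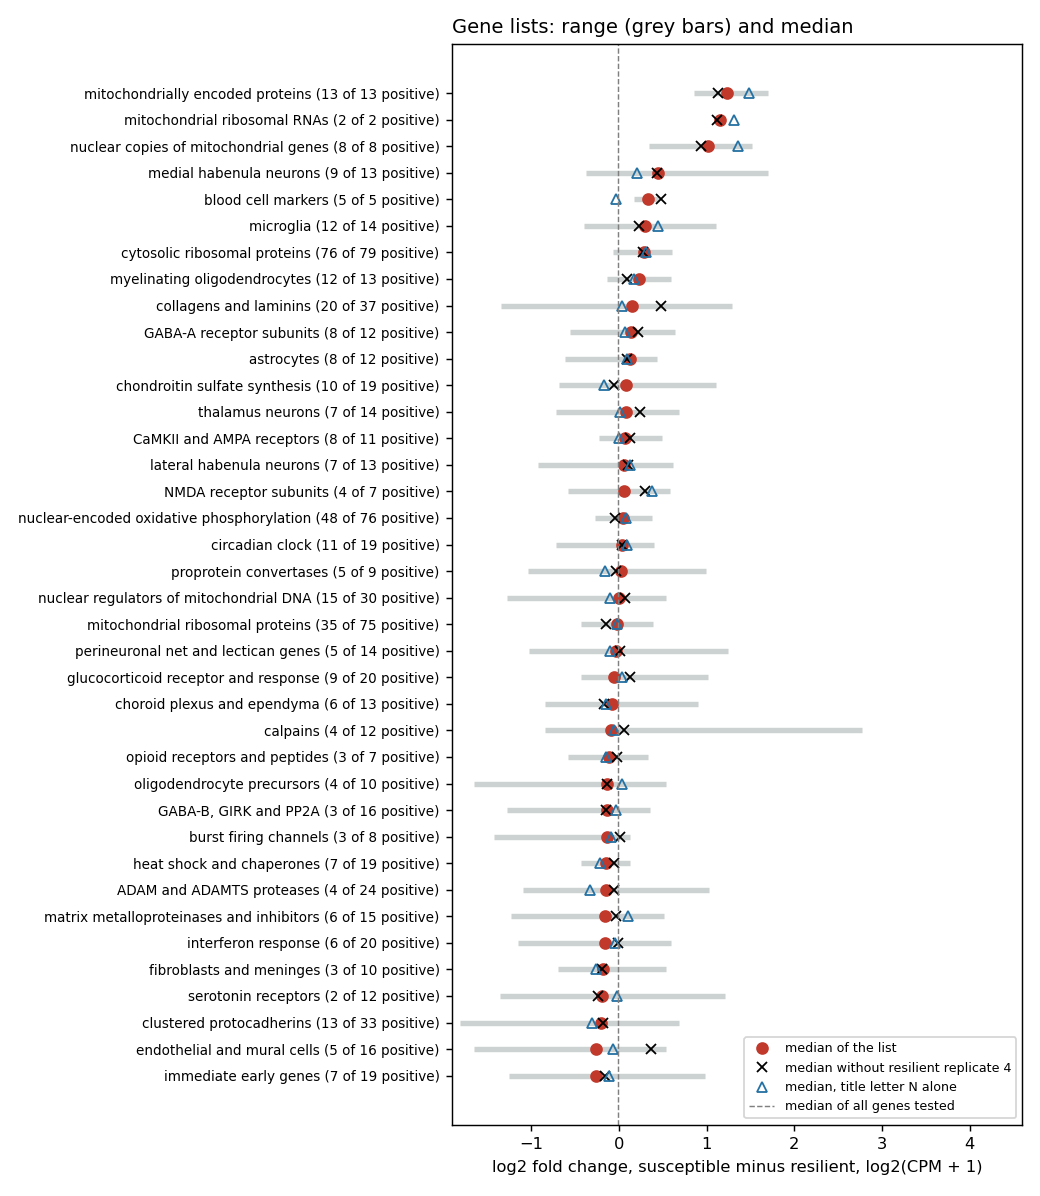
Log2 fold changes of susceptible minus resilient libraries for 37 gene lists and the nuclear copies of mitochondrial genes, with the range over tested members (grey bars), the median (red points), the median without resilient replicate 4 (crosses) and the median with the title letter N alone (triangles). The mitochondrial RNAs and their nuclear copies stand at 1.01 to 1.23, and other list medians lie between -0.26 and 0.45.

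Capn3 was the 1 nuclear gene that passed. It encodes calpain-3, a calcium-activated protease best known from skeletal muscle. It stood at 8.71, 7.44, 2.63 and 9.86 CPM in susceptible, at 0, 0.242, 0 and 0.195 CPM in resilient and at 1.97, 0.323, 0.0413 and 2.23 CPM in non-defeated libraries, from 380, 260, 99 and 378 reads in susceptible and 0, 10, 0 and 7 reads in resilient libraries. The groups of defeated mice were separate, and every susceptible library was also above every non-defeated one. The log2 fold change on the log2(CPM + 1) scale, which understates changes of scarce genes, was 2.77 ± 0.45 (SE, limma-trend adjusted p = 0.0475). By limma-trend the adjusted p was 0.0521 on plain CPM over all genes and 0.0517 on plain CPM without mitochondrial genes. Other tests differed: the adjusted p of Capn3 was 0.000439 by DESeq2, 0.322 by limma voom with quality weights and 0.9998 by edgeR's quasi-likelihood test. Capn3 (ENSMUSG00000079110, chromosome 2, 120456019 to 120504913, + strand) shares 386 exon bases with its neighbour Ganc on the same strand, whose level overlapped between the groups, at 7.80 to 16.1 CPM in susceptible and 1.96 to 22.9 CPM in resilient libraries. Of 12 tested genes for calpains, their small subunit and their inhibitor, 4 were positive and 8 negative. Among them Cast, which encodes the calpain inhibitor calpastatin, stood at 10.6, 10.2, 17.3 and 21.2 CPM in susceptible and at 23.0, 23.6, 28.4 and 24.0 CPM in resilient libraries, again with separate groups (log2 fold change -0.76 ± 0.31, SE; limma-trend, adjusted p = 1). Cast shares 834 exon bases with Erap1 on the other strand.

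**Figure D5:**
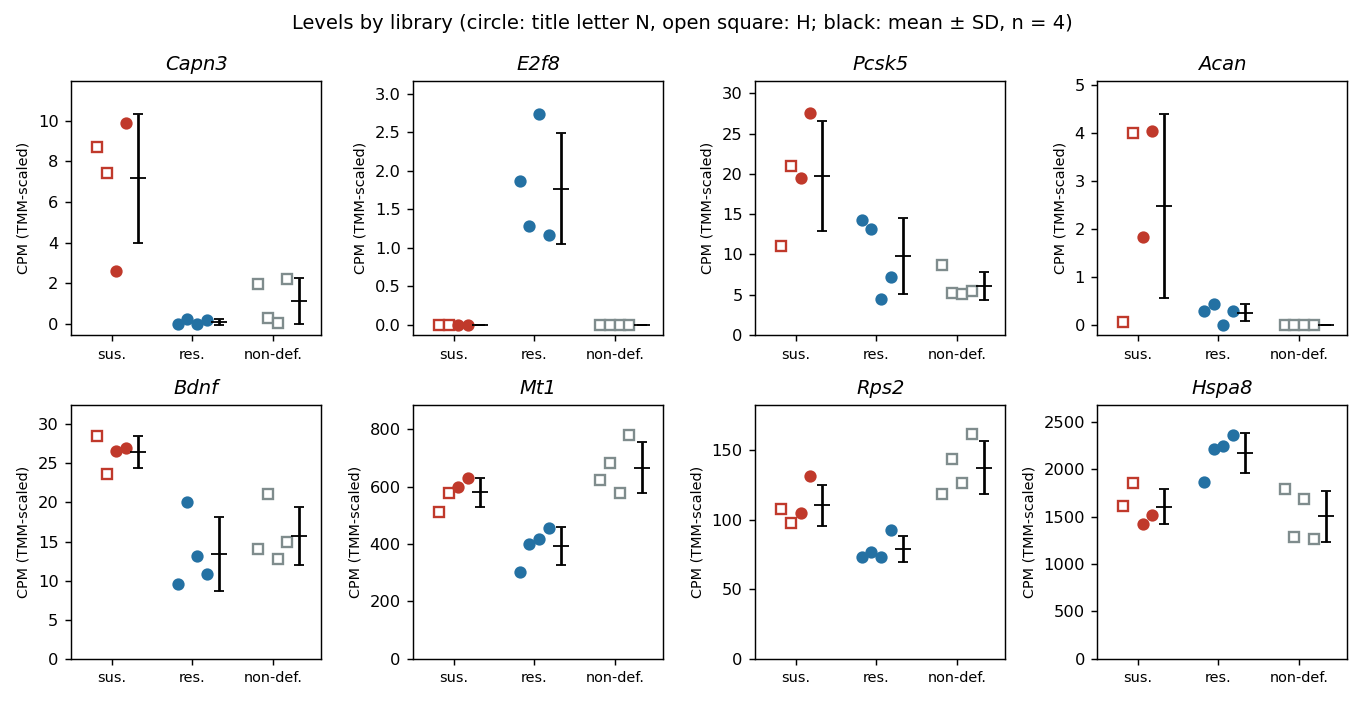
Levels in CPM of 8 genes in each library of the susceptible (sus.), resilient (res.) and non-defeated (non-def.) groups, with circles for title letter N, open squares for H and black bars for the mean ± SD. Capn3, Bdnf, Mt1 and Rps2 lie higher and E2f8 and Hspa8 lower in every susceptible library than in any resilient one, while Pcsk5 and Acan overlap.

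Several scarce transcripts were found in resilient libraries and had no read in susceptible ones. The rule asked for at least 10 reads in every library of 1 group and no read in the other. Of 17111 genes tested 10 met it, all with no read in susceptible libraries, and 0 met it in the opposite direction. Because the rule picked these genes by their reads, their bounds and p-values describe them and are no separate support for a difference. E2f8, an atypical E2F factor that represses cell-cycle genes, had no read in susceptible and non-defeated libraries and 83, 53, 117 and 42 reads in resilient ones, or 1.87, 1.28, 2.74 and 1.17 CPM. Against a floor of 3 reads pooled over the susceptible group, which covers counting error alone, it was at least 92.5-fold lower in susceptible mice (limma-trend, adjusted p = 0.0679; DESeq2, adjusted p = 0.0152). Dlx2, a homeobox gene of forebrain GABAergic neurons, had 78, 35, 124 and 22 reads in resilient libraries and was at least 81.2-fold lower in susceptible mice (limma-trend, adjusted p = 0.430; DESeq2, adjusted p = 0.0231). Both E2f8 and Dlx2 were at or near 0 in non-defeated libraries too. Cnga4, which encodes an olfactory cyclic nucleotide-gated channel subunit, had 51, 74, 4 and 59 reads in non-defeated libraries. It was at least 104-fold lower in susceptible than in resilient mice (adjusted p = 0.807 by limma-trend and 2.70e-05 by DESeq2). The other 7 were Gm43011, Slc16a5, AI182371, Mms22l, Cytl1, Gm44697 and Mgl2, with bounds from 47.6-fold to 92.5-fold. None of the 10 passed by limma-trend.

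Tnfrsf8 and 4930525G20Rik, also among the 20 genes of smallest p, were scarce as well. Tnfrsf8, which encodes the CD30 receptor of the tumour necrosis factor family, stood at 0.138, 0, 0 and 0.287 CPM in susceptible and at 5.27, 5.30, 2.76 and 2.53 CPM in resilient libraries (log2 fold change -2.12 ± 0.44, SE; limma-trend, adjusted p = 0.259). 4930525G20Rik, annotated as an antisense transcript, stood at 3.9, 3.95, 8.16 and 7.46 CPM in susceptible and at 0, 1.21, 0.0937 and 1.83 CPM in resilient libraries (2.02 ± 0.44, SE; limma-trend, adjusted p = 0.378). Both had separate groups, and as the use of strand is not stated, reads of an antisense transcript and of the gene opposite cannot be told apart.

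Among genes averaging at least 20 CPM, 7801 in all, 125 had separate groups with higher and 76 with lower susceptible values. Over all 17111 genes tested, 241 (1.41%) and 190 (1.11%) had separate groups in these directions. The 125 include the 15 mitochondrial genes, and the counts were not tested. The 5 higher ones with the smallest p were mitochondrial. The 5 lower ones with the smallest p were Clcn7, Fbxw11, Mfn2, Rtn4ip1 and Prpf8, and 0 of them passed by limma-trend. Fbxw11, a subunit of an SCF ubiquitin ligase, stood at 134, 134, 133 and 132 CPM in susceptible and at 205, 186, 186 and 169 CPM in resilient libraries (log2 fold change -0.48 ± 0.13, SE; DESeq2, adjusted p = 0.0288). The susceptible libraries differed little among themselves in this gene. Clcn7, a lysosomal chloride and proton exchanger gene, stood at 50.8, 40.2, 29.7 and 46.0 CPM in susceptible and at 71.6, 67.2, 58.3 and 87.0 CPM in resilient libraries (-0.77 ± 0.20, SE). Rtn4ip1, which encodes a mitochondrial oxidoreductase, had -0.75 ± 0.23 (SE), and it shares 122 exon bases with Crybg1 on the other strand. The splicing factor gene Prpf8 had -1.23 ± 0.39 (SE), with resilient replicate 4 at 65.9 CPM and the other resilient libraries at 21.2 to 24.8 CPM.

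The next higher genes to be described, Ergic1, B3galt2, Max and Tmed9, were chosen after their values were seen. Ergic1, a cargo receptor gene of the endoplasmic reticulum to Golgi compartment, stood at 177, 144, 166 and 208 CPM in susceptible and at 80.8, 99.6, 74.2 and 142 CPM in resilient libraries (log2 fold change 0.84 ± 0.20, SE; limma-trend, adjusted p = 0.526; DESeq2, adjusted p = 0.0413). Tmed9, of the same compartment, had 0.56 ± 0.15, and the glycosyltransferase gene B3galt2 0.91 ± 0.22 (SE; DESeq2, adjusted p = 0.00545 for B3galt2). Max, which encodes the partner of MYC, stood at 102, 61.0, 51.8 and 102 CPM in susceptible and at 13.5, 33.3, 16.4 and 49.98 CPM in resilient libraries (1.58 ± 0.39, SE). All 4 had separate groups and none passed by limma-trend. B3galt2 shares 679 exon bases with Cdc73 on the other strand.

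Proprotein convertases and perineuronal net genes are nearest to the title of the series. Of the 9 convertases, which activate precursor proteins by cleavage, 5 were positive (median 0.02, but -0.16 with the letter N alone and -0.04 without resilient replicate 4) and 0 passed. Pcsk5 stood at 11.0, 20.97, 19.4 and 27.5 CPM in susceptible, at 14.3, 13.2, 4.52 and 7.22 CPM in resilient and at 8.71, 5.17, 5.16 and 5.49 CPM in non-defeated libraries. Susceptible replicate 1 lay within the resilient range, so the groups overlapped, and the log2 fold change was 0.99 ± 0.38 (SE; limma-trend, unadjusted p = 0.0210, adjusted p = 1). Furin had 0.05 ± 0.42 (SE).

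Of 14 perineuronal net and lectican genes 5 were positive (median -0.04, and 0.01 without resilient replicate 4) and 0 passed. Acan, which encodes the net proteoglycan aggrecan, had 2, 140, 69 and 155 reads in susceptible and 13, 18, 0 and 10 reads in resilient libraries, or 0.0458, 4.0, 1.83 and 4.04 CPM in susceptible and 0.293, 0.436, 0 and 0.278 CPM in resilient ones. Susceptible replicate 1 lay within the resilient range. The log2 fold change was 1.24 ± 0.42 (SE; limma-trend, unadjusted p = 0.0102, adjusted p = 1). Has3, a hyaluronan synthase gene for the backbone to which aggrecan binds, stood at 0.229, 1.72, 1.01 and 4.33 CPM in susceptible and at 0.0451, 0, 0.0468 and 0.167 CPM in resilient libraries, with separate groups (1.20 ± 0.44, SE). It shares 352 exon bases with Chtf8 on the other strand. Chsy1, a chondroitin synthase gene, had 1.11 ± 0.48 (SE), among 19 genes of chondroitin sulfate synthesis of which 10 were positive.

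No matrix protease gene passed. Of 15 metalloproteinase and inhibitor genes tested, 6 were positive, with a median of -0.16 that turned to 0.10 with the letter N alone. Of 24 ADAM and ADAMTS genes 4 were positive (median -0.15, and -0.33 with the letter N alone). Mmp9, a gelatinase gene, stood at 1.65, 1.12, 1.89 and 2.09 CPM in susceptible and at 3.11, 5.30, 5.60 and 2.67 CPM in resilient libraries, with separate groups (log2 fold change -0.91 ± 0.42, SE). Mmp23 had -1.24 ± 0.50, while Mmp2 and Mmp14 had 0.51 ± 0.70 and -0.32 ± 0.44 (SE). Adam17, a sheddase gene, stood at 11.4, 4.35, 12.5 and 6.86 CPM in susceptible and at 15.6, 12.7, 26.1 and 22.9 CPM in resilient libraries, again with separate groups (-1.10 ± 0.44, SE). It shares 311 exon bases with Iah1 on the other strand. Of 37 collagen and laminin genes 20 were positive (median 0.14, and 0.48 without resilient replicate 4), among them Col9a1 at 1.28 ± 0.41 (SE), while Lamb1 had -1.34 ± 0.51 (SE).

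No stress hormone or activity gene passed. Of 20 genes of the glucocorticoid receptor and its targets 9 were positive, with a median of -0.06 that turned to 0.04 with the letter N alone and to 0.12 without resilient replicate 4. The metallothionein genes, which bind zinc and copper and are induced by glucocorticoids, had separate groups: Mt1 stood at 510.3, 579, 599.9 and 631 CPM in susceptible, at 302, 401, 417 and 455 CPM in resilient and at 624, 684, 576 and 781 CPM in non-defeated libraries (log2 fold change 0.57 ± 0.15, SE; limma-trend, adjusted p = 0.807). Mt2 had 0.69 ± 0.24 (SE). Of 19 immediate early genes tested, which respond to recent neuronal firing, 7 were positive (median -0.26). Bdnf, a neurotrophin gene induced by activity, stood at 28.6, 23.6, 26.6 and 27.0 CPM in susceptible, at 9.62, 20.1, 13.2 and 10.8 CPM in resilient and at 14.05, 21.1, 12.8 and 14.9 CPM in non-defeated libraries. Its susceptible libraries lay above all libraries of the other groups (0.98 ± 0.27, SE; limma-trend, adjusted p = 0.872). Egr1, an immediate early gene of the same list, went the other way (-0.75 ± 0.32, SE, limma-trend unadjusted p = 0.0339). It stood at 52.5, 22.8, 24.9 and 21.4 CPM in susceptible and at 55.1, 70.2, 54.5 and 25.9 CPM in resilient libraries, and its groups overlapped. Of 19 heat shock and chaperone genes 7 were positive (median -0.14), and Hspa8, a constitutive chaperone gene, stood at 1612, 1853, 1427 and 1516 CPM in susceptible and at 1865, 2209, 2239.6 and 2356 CPM in resilient libraries (-0.44 ± 0.14, SE). Of 20 interferon response genes 6 were positive (median -0.16, and -0.01 without resilient replicate 4), with Gbp2 at -1.15 ± 0.48 and Irf9 at -0.68 ± 0.31 (SE).

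No receptor or channel gene studied in the lateral habenula passed. Of 16 genes of GABA-B receptors, GIRK channels and protein phosphatase 2A 3 were positive (median -0.14), of 8 channels of burst firing 3 (median -0.14, and 0.01 without resilient replicate 4) and of 12 serotonin receptors 2 (median -0.19, and -0.02 with the letter N alone). The phosphatase catalytic subunit gene Ppp2ca stood at 86.5, 70.8, 633 and 517 CPM in susceptible and at 777, 590.4, 586 and 263 CPM in resilient libraries (log2 fold change -1.28 ± 0.68, SE). The 2 susceptible libraries with the letter H were low and the 2 with N were within the resilient range. The pacemaker channel gene Hcn2 stood at 3.21, 3.12, 95.4 and 25.0 CPM in susceptible and 51.8, 57.4, 84.0 and 7.67 CPM in resilient libraries (-1.43 ± 0.93, SE). Its 2 susceptible libraries with H were also low, while susceptible replicate 3 lay above the resilient range and susceptible replicate 4 within it. With the letter N alone the fold changes were 0.15 for Ppp2ca and 0.37 for Hcn2. The non-defeated libraries, all with H, stood at 210, 89.2, 358 and 86.8 CPM for Ppp2ca and at 8.16, 3.23, 12.7 and 3.28 CPM for Hcn2. Olig2, a factor of the oligodendrocyte lineage, stood at 2.41, 4.75, 49.9 and 15.0 CPM in susceptible and at 38.3, 37.9, 62.9 and 7.11 CPM in resilient libraries (-1.41 ± 0.77, SE). Its susceptible libraries with H were low too, and those with N lay within the resilient range. In non-defeated libraries Olig2 stood at 6.06, 4.55, 10.4 and 3.16 CPM. The serotonin receptor gene Htr2a had -1.36 ± 0.65 (SE). Of 12 GABA-A receptor subunit genes 8 were positive (median 0.14), of 11 CaMKII and AMPA receptor genes 8 (median 0.06, and -0.0039 with the letter N alone), of 7 NMDA receptor subunit genes 4 (median 0.05, but 0.37 with the letter N alone and 0.30 without resilient replicate 4) and of 7 opioid receptor and peptide genes 3 (median -0.11). Of 33 clustered protocadherin genes tested, which encode cell adhesion proteins of neurons, 13 were positive (median -0.20). Members of 1 such cluster share their last exons, so the split of reads between them is uncertain. Of 19 circadian clock genes 11 were positive (median 0.03), and 0 genes of these 6 lists passed.

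No marker of the other cell types passed. Of 13 medial habenula markers 9 were positive (median 0.45, and 0.21 with the letter N alone). The nicotinic receptor genes Chrnb4 and Chrna3 stood at 17.6 to 26.5 and 13.02 to 28.6 CPM in susceptible and at 0.609 to 20.2 and 2.13 to 14.9 CPM in resilient libraries, with log2 fold changes of 1.70 ± 0.67 and 1.54 ± 0.61 (SE). Of 14 microglia markers 12 were positive (median 0.29), and Siglech, a lectin gene of resting microglia, stood at 11.6, 17.9, 12.1 and 14.3 CPM in susceptible and at 5.43, 11.5, 4.47 and 4.0 CPM in resilient libraries (1.11 ± 0.33, SE). Of 13 myelin markers 12 were positive (median 0.23, and 0.09 without resilient replicate 4), with separate groups for Cldn11, a gene of myelin tight junctions, at 0.59 ± 0.21 (SE). Of 13 lateral habenula markers 7 were positive (median 0.06), and of 14 thalamus markers 7 (median 0.08, and 0.24 without resilient replicate 4). The lateral habenula marker Syn2, a synaptic vesicle gene, had -0.92 ± 0.35 (SE). It stood at 63.0, 48.8, 153 and 139 CPM in susceptible and at 149, 223, 217 and 119 CPM in resilient libraries. Its susceptible libraries with the letter H were low, and those with N lay within the resilient range. The non-defeated libraries, all with H, stood at 82.7, 49.9, 95.6 and 75.4 CPM. Of 16 endothelial and mural markers 5 were positive, and their median of -0.26 became 0.37 without resilient replicate 4 and -0.07 with the letter N alone. In that library Pecam1 stood at 25.0 CPM, with the other resilient libraries at 2.32 to 5.78 CPM. Of 12 astrocyte markers 8 were positive (median 0.13), of 10 oligodendrocyte precursor markers 4 (median -0.14, and 0.04 with the letter N alone), of 10 fibroblast and meningeal markers 3 (median -0.18) and of 13 choroid plexus and ependymal markers 6 (median -0.08). All 5 blood markers were positive, with a median of 0.33 that turned to -0.03 with the letter N alone and to -0.25 without susceptible replicate 1. Hba-a2 stood at 1646, 288, 339.7 and 524 CPM in susceptible and 489.7, 332, 394 and 589 CPM in resilient libraries (0.29 ± 0.46, SE). The groups overlapped in summed level for medial habenula, myelin, endothelial and blood markers, and for microglia (359.8 to 514 CPM in susceptible and 284 to 375 CPM in resilient libraries). The part of these cell types in the mitochondrial and ribosomal protein differences was not tested.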

How the data were processed

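Lateral habenula was punched from 500 µm slices, and 100 pg of RNA per library was amplified with a SMART-Seq v4 kit, per the labels' protocols. Per the submitters' processing notes, featureCounts counted reads on GRCm38 (mm10) and edgeR was used for testing; versions, aligner and strand setting: not given in the sources used here. The deposited columns are headed as read counts, but their values are CPM plus a constant of 0.00608, per the file headers and values. Subtracting it gave whole multiples of 1 read for 100% of values within 0.001 read. The interaction ratio was deposited by the authors with 1 value per mouse, and its definition is not given. The other deposited statistics were not used.

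Of 17416 genes, 17402 matched GENCODE M21, and 1 row without a gene was dropped. Depth was 33.3 to 47.7 M reads, where 1 read is 0.0209 to 0.0300 CPM. Libraries of the same group differed beyond counting noise (chi-square over its degrees of freedom at least 73.3). Since the values are CPM, the test was limma-trend with the robust step (R 4.3.3, limma 3.58.1) on log2 of TMM-scaled CPM (edgeR 4.0.16) plus a pseudocount of 1, with group means over 12 libraries and the contrast of susceptible minus resilient. filterByExpr with a minimum count of 10 removed 305 genes and left 17111. Benjamini-Hochberg adjusted p under 0.05 was called, over all genes. edgeR's quasi-likelihood test, DESeq2 1.42.0 and limma voom ran on recovered reads as alternatives. Single values used exact permutation tests (scipy 1.17.1). Nuclear copies were found with blastn 2.17.0. The procedure was tested on simulated data. No molecular identifiers were used, so a floor of 3 reads covers counting error alone.

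The members and 37 gene lists were chosen with earlier results of these data known. The mitochondrial genes, which are among these lists, were tested by their share of reads, and no other list was given a test. Genes were named by rule: those passing and then the smallest p up to 20; the 5 higher and 5 lower of smallest p averaging at least 20 CPM with separate groups; up to 3 members of smallest p of each list described; 5 genes near the series' title; and genes with no read in 1 group and at least 10 reads in each library of the other. Gpr151, Hba-a2, Ganc, Ergic1, Tmed9, B3galt2 and Max fall outside it and were picked after their values were seen. Some genes that the rule names are not reported here.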

Additional observations from a re-analysis of the deposited data

Results flagged for a closer look

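Within groups of 4 libraries, 169 sets of values were examined for a single library far from the rest, by the ratio of its gap to the whole range (Dixon's 95% critical value). Chance flags about 1 in 20 such groups, and 7 were found, so their number is near what chance gives. The interaction ratio of resilient replicate 4 was 2.24, with the other resilient mice at 1.08 to 1.20. The same library stood apart in Prpf8, at 65.9 CPM against 21.2 to 24.8 CPM in the other resilient libraries, and in Rps19, at 99.8 CPM against 125 to 130.3 CPM. Susceptible replicate 3 stood apart in Gbp2, at 1.86 CPM against 0 to 0.0229 CPM in the other susceptible libraries, and in Cldn11, at 27.3 CPM against 37.0 to 38.0 CPM. Susceptible replicate 1 was low in Mt2, at 15.7 CPM against 22.5 to 24.1 CPM in the others. Susceptible replicate 4 was low in Htr2a, at 0.0522 CPM against 7.52 to 8.14 CPM.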

How the results depend on the processing

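The number of genes called, 9, was 0 with a pseudocount of 5, without the robust step, with the 8 defeated libraries alone, with the letter N alone and by edgeR's quasi-likelihood test, 1 with a pseudocount of 0.25, 38 by DESeq2 and 16 by limma voom with quality weights. It was 0 to 10 when 1 of the 12 libraries was left out: 0 without any defeated library or non-defeated replicate 1 or 2, 10 without non-defeated replicate 3 and 2 without non-defeated replicate 4. All 15 mitochondrial genes stayed positive in each of these. Same-numbered libraries showed no strong shared deviation (r = -0.17, -0.03, 0.11 and 0.08 for numbers 1 to 4). This check cannot exclude that the numbers pair the samples, since a pairing need not leave a strong shared deviation. A replicate block gave 0 genes (mt-Rnr1 1.19, limma-trend adjusted p = 0.123). The count of genes with separate groups, 431, was 692 to 1464 with 1 library left out and 1958 with the letter N alone, since fewer libraries overlap less often. The mitochondrial share differed by 4.76 points in medians (exact permutation test, p = 0.0571), by 6.85 with the letter N alone, and by 4.30 to 5.84 with 1 library left out, where 0.0571 is the smallest p possible.

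Of the named genes, these turned direction. With 1 library left out, Furin ran from -0.22 (without resilient replicate 3) to 0.38, Gm28438 from -0.045 (without susceptible replicate 4) to 0.59 and Hba-a2 from -0.25 (without susceptible replicate 1) to 0.59. Hba-a2 was at -0.063 with the letter as a term or N alone, where Ppp2ca was at 0.15 and Hcn2 at 0.37. The cause was not tested. The median of 21 of 38 gene lists, the nuclear copies counted as 1, changed sign in at least 1 alternative, 18 of them with 1 library left out. Genes near 1 CPM are uncertain, because several libraries have no read of them though 1 read is only 0.0209 to 0.0300 CPM. Why these libraries had none was not tested.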

Other observations

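Median fold changes by gene length were small, and their order over the bins turned round without 1 library. Among genes averaging at least 10 CPM over the defeated libraries, split into 4 equal bins by exon length, the median log2 fold change of susceptible minus resilient libraries was 0.03 in the shortest bin (2482 genes) and -0.03, -0.04 and -0.04 in the longer ones. Without the cytosolic ribosomal protein genes the shortest bin stood at 0.03, and without resilient replicate 4 the bins stood at -0.08, -0.08, -0.02 and 0.07. These values are descriptions and were not tested.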
